A study of Mus musculus with 4 samples.

Results

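The accessible sites of 9 genes of the bromodomain and extra-terminal (BET) family and of the SWI/SNF chromatin remodelling complex were examined in HAT1+/+ and HAT1-/- fibroblasts. The genes were Brd2, Brd3, Smarca2, Smarca4, Smarcc1, Smarcc2, Arid1a, Arid1b and Smarcb1. A site was taken as a member if it overlapped the body of a member gene or lay within 10 kb of its transcription start site (TSS) in the GENCODE annotation of mm10, which gave 60 of the 82325 sites in the table. Every member gene had at least 2 sites. The rule uses gene positions and no measured value, while the genes themselves were chosen with earlier results of these data known. The sites report on the chromatin of these genes, and neither the proteins nor their transcripts were measured here.

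The libraries were made by ATAC-Seq, in which the transposase Tn5 inserts adapters into open chromatin, from mouse embryonic fibroblasts of C57bl6 background immortalized with SV40 T antigen. The 2 WT libraries came from lines with both copies of Hat1 (HAT1 WT, HAT1+/+) and the 2 KO libraries from lines without it (HAT1 KO, HAT1-/-), with no other treatment named. Each library came from its own immortalized line, so a difference between genotypes cannot be told apart from a difference between lines beyond what 2 lines per genotype allow. The value of a site is an average over all cells of a library, so that fewer cells with the site open and less opening per cell cannot be told apart.

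BET proteins carry bromodomains that bind acetylated lysines on histones H3 and H4, and they bring transcription elongation factors to acetylated chromatin. SWI/SNF complexes use the energy of ATP to slide or evict nucleosomes. The canonical BAF form holds SMARCA4 or SMARCA2 as its motor, SMARCC1, SMARCC2 and SMARCB1 in its core, and ARID1A or ARID1B. HAT1 acetylates histone H4 before it is deposited on new DNA. The study's background links HAT1 to the presence of several bromodomain proteins on newly replicated chromatin.

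The values were whole-number normalized counts per site. Their totals ran from 8008069 to 8516263 per library and their medians from 51 to 53. The approximate depth in sites was 9420000 and 11400000 reads for WT replicates 1 and 2, and 7830000 and 5650000 for KO replicates 1 and 2, so both KO libraries were shallower. Over the member sites, the SD of the log2 difference between libraries was 0.594 for the WT pair and 0.649 for the KO pair, against 0.457 to 0.674 for pairs of different genotype. Of 11 fibroblast marker genes, 10 had a promoter site, with 35 to 977 normalized counts, and Pdgfra had none. Of 9 markers of other cells, 5 had one, Ptprc, Spi1, Cdh5 and Pou5f1 had none, and the highest was Tubb3 with up to 181. The sites of Hat1 itself do not check the genotype labels: its promoter site had 390, 384, 438 and 368 normalized counts in WT replicates 1 and 2 and KO replicates 1 and 2.

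To show what the promoters of these genes look like, the 250 bases before the RefSeq start (GRCm38.p6, the assembly named mm10) are printed for 4 genes whose start lay in a site and for Smarcb1, whose start did not. The Brd2 stretch lies at chr17:34122608-34122857 (minus strand), Arid1a at chr4:133756770-133757019 (minus strand), Smarca4 at chr9:21615919-21616168 (plus strand), Smarcc2 at chr10:128458986-128459235 (plus strand) and Smarcb1 at chr10:75921615-75921864 (minus strand). Each is written 5′ to 3′ along its gene, and capitals mark matches to the searched motifs.
Brd2: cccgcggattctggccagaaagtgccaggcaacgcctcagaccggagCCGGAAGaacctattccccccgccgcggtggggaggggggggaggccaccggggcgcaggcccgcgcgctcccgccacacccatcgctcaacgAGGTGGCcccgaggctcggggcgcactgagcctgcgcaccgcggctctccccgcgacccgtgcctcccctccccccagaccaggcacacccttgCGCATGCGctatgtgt
Arid1a: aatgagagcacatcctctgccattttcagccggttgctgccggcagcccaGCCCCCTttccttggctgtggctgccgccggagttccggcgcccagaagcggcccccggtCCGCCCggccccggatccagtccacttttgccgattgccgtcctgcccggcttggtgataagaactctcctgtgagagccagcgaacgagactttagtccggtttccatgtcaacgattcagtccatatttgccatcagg
Smarca4: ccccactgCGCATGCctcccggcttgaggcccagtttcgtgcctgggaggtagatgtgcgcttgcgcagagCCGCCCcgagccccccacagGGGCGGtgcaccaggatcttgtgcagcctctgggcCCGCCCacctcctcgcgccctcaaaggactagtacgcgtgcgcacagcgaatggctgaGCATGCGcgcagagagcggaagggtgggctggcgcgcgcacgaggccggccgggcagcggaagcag
Smarcc2: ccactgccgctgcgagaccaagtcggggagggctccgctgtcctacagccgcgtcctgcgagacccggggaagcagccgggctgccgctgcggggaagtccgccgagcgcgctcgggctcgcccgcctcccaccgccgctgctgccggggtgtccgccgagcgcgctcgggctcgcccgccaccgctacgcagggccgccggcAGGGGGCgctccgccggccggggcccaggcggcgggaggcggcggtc
Smarcb1: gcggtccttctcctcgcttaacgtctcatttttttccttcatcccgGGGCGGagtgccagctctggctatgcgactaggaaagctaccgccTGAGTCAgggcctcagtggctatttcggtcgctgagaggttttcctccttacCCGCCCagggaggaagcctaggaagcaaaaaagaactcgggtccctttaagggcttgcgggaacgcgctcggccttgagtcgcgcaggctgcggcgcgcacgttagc

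All 9 genes were matched in the RefSeq promoter table, with 12 start sites between them. Over the 250 bases before these 12 starts the median GC content was 69.6% and the median number of CpG dinucleotides was 26, against 52.4% and 6 over the 32851 promoters of the table. The GC box (GGGCGG, read on both strands, as were all motifs) was present in 9 of the 12, or 75%, against 32.7% of all promoters. The CCAAT box (CCAAT) was in 0 of the 12 and in 33.8% of all. The NRF1 core (GCATGCG) was in 3, or 25%, against 3.02%, and the ETS motif (CCGGAAG) in 3 against 6.91%. The CTCF core (AGGTGGC or AGGGGGC) was in 5, or 41.7%, against 14% of all, and these letters can overlap a GC box. In the printed stretches, Smarca4 held 3 GC boxes and 2 NRF1 cores, while Smarcb1 held an AP-1 motif (TGACTCA). The CRE (TGACGTCA) and E-box (CACGTG) letters were in 0 of the 12, against 1.55% and 6.02% of all. A match describes the letters only.

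No member site was called differentially accessible. A site was called where the unadjusted p from limma, a linear model fitted across all sites, was under 0.01 and the values changed by a log2 fold change of 1 or more in either direction. By this rule 0 of the 60 member sites were called, against 307 of all 82325 sites (0.373%). No site of the whole table had an adjusted limma p under 0.05. At an unadjusted p under 0.05, 2 of the 60 passed, 1 higher and 1 lower in KO, against 3.13% of all sites. Every member site had an adjusted p of 1. Fold changes ran from -1.19 to 0.72 (log2, KO against WT, on values with a pseudocount of 1), and 1 site passed an absolute value of 1.

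Over the 60 sites, replicates of WT differed by a median absolute log2 value of 0.293 and replicates of KO by 0.295. The genotype means differed by a median of 0.209, a value that averaging over 2 libraries makes smaller, so the sizes cannot be ranked from these medians. In 15 of the 60 sites (25%) the difference between genotypes was larger than both differences within a genotype, against 18.9% of all sites. Both KO libraries lay above both WT libraries at 13 sites, against 14.6% of all sites, and below both at 7 sites, against 14.3%. With libraries scaled to equal totals these counts were 7 and 10. With quantile normalization they were 9 and 8, so the predominance of higher sites depended on the scaling. The shares over all sites are for the values as deposited and were not computed under these scalings.

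The 95% confidence interval of the fold change lay within a log2 fold change of 1 in either direction at 31 of the 60 sites. It did so at 28 of the 29 sites with a mean of at least 100 normalized counts, and at 3 of the 31 sites below that. Changes of that size at the weak sites were thus often not detectable with these libraries. At strong sites too, a true change close to the fold threshold can be estimated below it and so not be called.

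**Figure D1:**
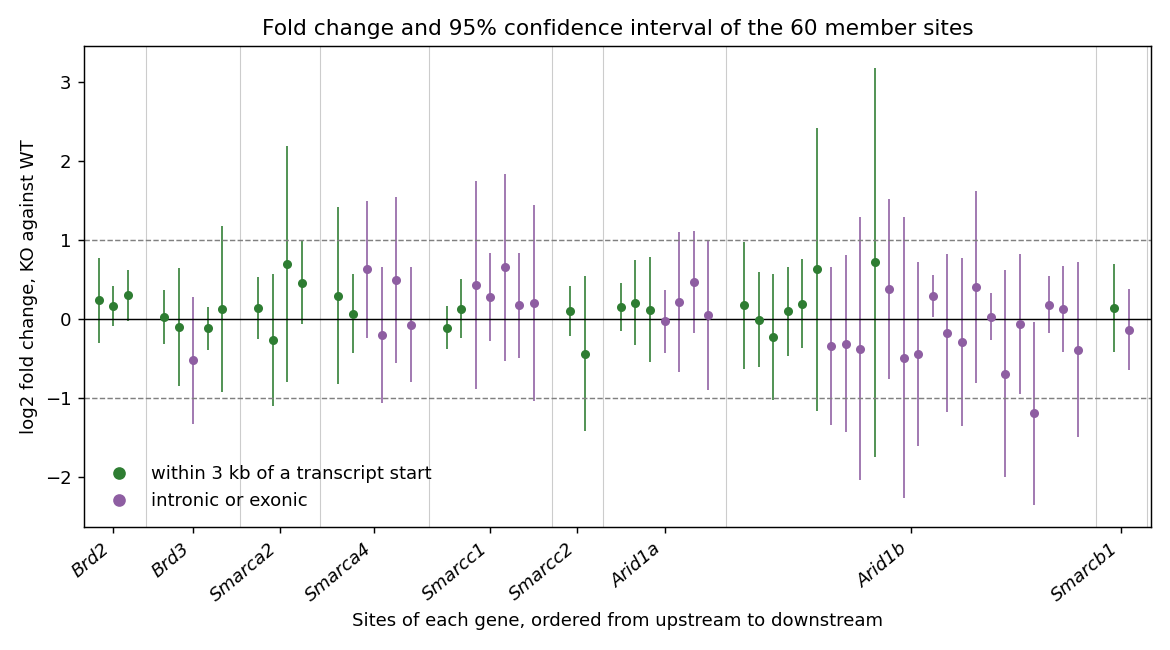
log2 fold change of normalized counts, KO against WT (y axis), for the 60 sites of the 9 genes (x axis, from upstream to downstream within each gene), with 95% limma confidence intervals as bars; green points lie within 3 kb of a transcript start, purple points are intronic or exonic, and dashed lines mark a log2 fold change of 1 in either direction. Points run from -1.19 to 0.72, and the intervals are widest at weak sites.

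As a group, the member sites were centred slightly above 0. Their median log2 fold change was 0.12, with 37 sites above 0 and 23 below, beside a median of 0.0062 over all sites. Level bears on this comparison, since member sites had a median of 88.3 normalized counts and all sites 52. Among sites with a mean of at least 100, the median was 0.13 for the 29 members and 0.09 for all 24100. Among weaker sites it was -0.07 for the 31 members and -0.06 for all. Under quantile normalization the member median was -0.0030, with 30 sites on each side of 0. In a comparison with sites of like level, in 20 bins of mean value, 54 of the 60 sites lay between the 5th and 95th percentile of their bin, 3 below and 3 above.

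**Figure D2:**
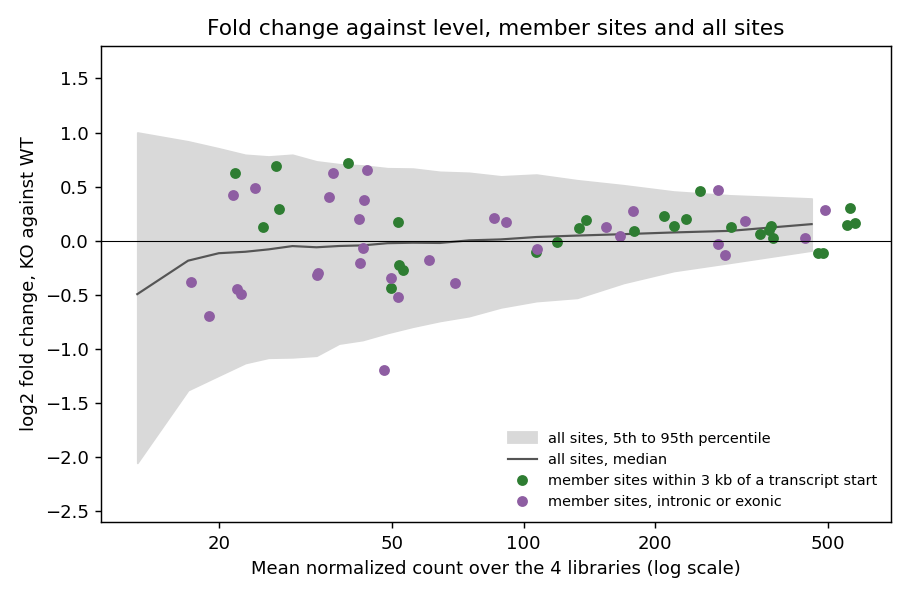
log2 fold change, KO against WT (y axis), against the mean normalized count over the 4 libraries (x axis, log scale), for the 60 member sites (points; green within 3 kb of a transcript start, purple intronic or exonic) over the 5th to 95th percentile (grey band) and the median (line) of all 82325 sites in 20 bins of mean value. The median of all sites rises with level from -0.49 in the lowest bin to 0.15 in the highest, and 54 member sites lie inside the band.

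By position, 28 member sites lay within 3 kb of an annotated transcript start, 30 were intronic and 2 exonic. The 28 sites near starts had a median log2 fold change of 0.13, with 21 above 0 (75%). For all 29130 such sites the median was 0.01, with 51.6% above 0. The member sites near starts were also stronger, with a median of 194 normalized counts against 95.6 for the class. The median fold change of all sites rises with level, and no match for level was made within this class. The other 32 were split evenly, 16 above 0 and 16 below, with a median of -0.0018. In the central 300 bases, sites near starts had a median GC content of 64.2%, against 56.0% for all sites of that class. The GC box was in 11 of these 28 windows (39.3% against 37.2% of the class) and the CCAAT box in 8 (28.6% against 29.7%). These shares thus lay closer to those of the class than in the stretches before RefSeq starts. AP-1 letters were in 10 of the 32 other sites (31.3%), against 37.6% of their class. The TEAD motif (CATTCC) was in 12 of them (37.5% against 28.4%) and the CTCF core in 0 (against 11.8%).

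None of these sites lay in a run of lost accessibility. The mean log2 fold change over the 25 sites centred on each member ran from -0.22 to 0.22. None fell below -0.58, the cutoff the study used for HAT1-dependent accessibility domains, while 2799 of all 82325 sites were centres of windows below it. Windows of neighbouring sites in a gene overlap, so the member values are not independent. Their absence below the cutoff was not tested against that share. The study listed its domains from primary fibroblasts and joined nearby regions, and it reports highly similar patterns in immortalized ones. The windows here come from immortalized lines and were not joined.

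Summed over its sites, no member gene passed the limma test. The adjusted p-values of the 9 sums were at least 0.928, and 0 of the 9 passed an unadjusted p under 0.05, against 3.88% of the 16947 protein-coding genes with a site. The log2 fold change was above 0 for 7 genes and below 0 for 2. Both KO sums exceeded both WT sums for 4 genes (Brd2, Smarcc1, Arid1a and Arid1b), against 22.5% of all genes. Both were lower for 0, against 11.9%. All 9 confidence intervals lay within a log2 fold change of 1 in either direction. An exact permutation test of 2 libraries against 2 cannot give a two-sided p below 0.333, so no single sum could pass such a test.

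**Figure D3:**
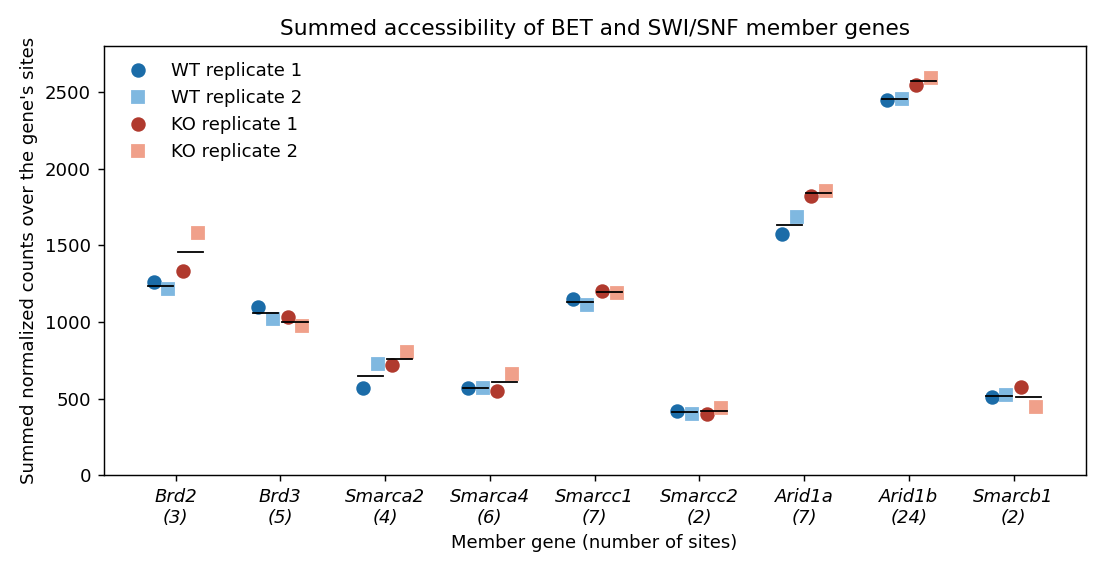
Normalized counts summed over the sites of each member gene (y axis), for each of the 4 libraries (circles and squares, blue for WT and red for KO), with the number of sites under each gene name and a black line at the mean of each genotype (n = 2). Arid1b, with 24 sites, has the highest sums, from 2450 to 2594. WT and KO points of Brd3, Smarca2, Smarca4, Smarcc2 and Smarcb1 overlap.

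Of the BET genes, Brd2 encodes a ubiquitous reader of acetylated histone H4. It lies on chromosome 17 (34112023 to 34122634, minus strand), and all 3 of its sites were close to its start. Their sums were 1260 and 1213 normalized counts in WT replicates 1 and 2 and 1331 and 1581 in KO replicates 1 and 2. Both KO values were above both WT values, with KO replicate 2 well apart. Their log2 fold change was 0.23 (95% interval -0.08 to 0.54). Without KO replicate 1 it was 0.35 and passed an unadjusted p under 0.05, so that call turned on 1 library.

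Per kb of sites, Brd2 had the highest sum of the 9 genes, 623 normalized counts. Its promoter site, chr17:34120910-34121828, had 539 and 545 normalized counts in WT and 577 and 638 in KO, with a log2 fold change of 0.16 (95% interval -0.09 to 0.41). The second site, chr17:34119033-34119840, had 508 and 496 in WT and 552 and 692 in KO, with a log2 fold change of 0.30 (95% interval -0.02 to 0.62). The genotypes did not overlap at either of these sites. They did overlap at the third, chr17:34122464-34122896, which holds the 5′ end of the gene record and the printed stretch. It had 213 and 172 in WT and 202 and 251 in KO, with a log2 fold change of 0.23 (95% interval -0.30 to 0.77). All 3 sites lay within 1 kb of annotated starts of H2-DMa, a gene for a chaperone of MHC class II peptide loading. The signal thus does not belong to Brd2 alone.

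Brd3, the other BET member, had 5 sites in its 62.1 kb on chromosome 2. The sums were 1099 and 1019 normalized counts in WT and 1032 and 970 in KO, which overlap, with a log2 fold change of -0.08 (95% interval -0.36 to 0.19). No site lay within 1 kb of the 5′ end of the gene record. The RefSeq start lay in the site chr2:27474989-27476442, 31220 bp from that end, which had 483 and 502 in WT and 468 and 441 in KO.

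Both KO values of this Brd3 start site were below both WT values. Its log2 fold change of -0.12 (95% interval -0.39 to 0.16) became -0.27 under quantile normalization and then passed an unadjusted p under 0.05. The intronic site chr2:27504104-27504566 had the second largest fall among member sites with a mean of at least 20, from 67 and 55 in WT to 42 and 42 in KO. The genotypes did not overlap there either, and the log2 fold change was -0.52 (95% interval -1.32 to 0.28). The Brd3 site farthest upstream, with 347 to 393 normalized counts, lay at the start of Wdr5.

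Of the motor subunits, Smarca4 encodes BRG1, and its sums over 6 sites were 566 and 570 normalized counts in WT and 548 and 663 in KO. The KO values bracketed the WT values, and the log2 fold change was 0.09 (95% interval -0.25 to 0.42). Without KO replicate 2 it was -0.05. Its promoter site, chr9:21615523-21616819, which holds the stretch printed above, had 359 and 318 in WT and 295 and 424 in KO. The genotypes overlapped, with a log2 fold change of 0.07 (95% interval -0.43 to 0.56) that turned to -0.20 without KO replicate 2.

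The strongest other Smarca4 site, chr9:21691934-21692915 in an intron, had 89 and 133 normalized counts in WT and 105 and 102 in KO. At 2 weak intronic sites both KO values exceeded both WT values, with 28 and 29 against 44 and 45 at chr9:21626580-21626888, and 21 and 19 against 27 and 30 at chr9:21686691-21686907. Their log2 fold changes were 0.63 (SE 0.36) and 0.49 (SE 0.44), neither past an unadjusted p of 0.05. Of the central 300 bases of the first, 83.7% were soft-masked as repeats in the reference, and how reads that match several places were treated is not given in the sources used here. These sites were chosen after their values were seen.

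Smarca2 encodes BRM, the alternative motor. Its 4 sites lay near annotated transcript starts and summed to 568 and 723 normalized counts in WT and 716 and 804 in KO. WT replicate 1 was low, and WT replicate 2 exceeded KO replicate 1. The log2 fold change was 0.24 (95% interval -0.13 to 0.61), beside a median of 0.23 over all sites of its chromosome 19. The part of the chromosome in this difference was not tested beyond centring, which gave the values below.

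The Smarca2 promoter site, chr19:26604635-26605356, had 313 and 392 normalized counts in WT and 367 and 403 in KO, with a log2 fold change of 0.13 (95% interval -0.26 to 0.53) that became -0.07 when each chromosome was centred on its median. The site at internal transcript starts, chr19:26747733-26748532, 142683 bp downstream, had 179 and 252 in WT and 287 and 298 in KO. The genotypes did not overlap at this internal site, and its log2 fold change was 0.46 (95% interval -0.06 to 0.98). Without WT replicate 2 it was 0.71 and passed an unadjusted p under 0.05. A weak site between them, chr19:26718242-26718586, had 25 and 14 in WT and 19 and 50 in KO. KO replicate 2 alone was high there, and the log2 fold change of 0.69 was the second largest rise among member sites with a mean of at least 20.

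The core subunits SMARCC1 (BAF155) and SMARCC2 (BAF170) form the scaffold on which the complex assembles. Smarcc1 had 7 sites with sums of 1149 and 1110 normalized counts in WT and 1202 and 1188 in KO. The genotypes did not overlap, but the log2 fold change was 0.08 (95% interval -0.18 to 0.34), and it became -0.02 under quantile normalization. Of its 7 sites, 4 had both KO values above both WT values, against 14.6% of all sites, and 1 had both below, against 14.3%.

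The site below was the promoter site by the gene record, chr9:110116704-110117916, with 523 and 488 normalized counts in WT and 482 and 454 in KO (log2 fold change -0.11, 95% interval -0.38 to 0.16). It also lay at the start of Dhx30, a gene for an RNA helicase. The RefSeq start of Smarcc1 fell in its strongest other site, chr9:110131691-110132544, with 297 and 274 in WT and 324 and 301 in KO (log2 fold change 0.13, 95% interval -0.24 to 0.50). The 2 start sites thus had opposite signs, each within an interval that held 0. The exonic site chr9:110170554-110171055 had 32 and 32 in WT and 33 and 78 in KO, the third largest rise (0.65), which rested on KO replicate 2. Without KO replicate 1 it was 1.26 and passed an unadjusted p under 0.05.

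Smarcc2 had 2 sites, which summed to 421 and 400 normalized counts in WT and 402 and 441 in KO. The genotypes overlapped, with a log2 fold change of 0.04 (95% interval -0.29 to 0.36). Its promoter site, chr10:128458238-128459478, held 84.3% and 88.0% of this sum in WT and 92.0% and 88.0% in KO. The site had 355 and 352 in WT and 370 and 388 in KO, a pair of close values in each genotype that did not overlap, with a log2 fold change of 0.10 (95% interval -0.22 to 0.42). The smaller site beside it, chr10:128459789-128460026, had 66 and 48 in WT and 32 and 53 in KO.

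Smarcb1 encodes SNF5 (BAF47), the core subunit that contacts the nucleosome. It stood apart from the other members in having no site within 1 kb of its start by either annotation. Of 21938 protein-coding genes, 58.0% had a site within 1 kb of the start of the gene record, and of the 9 members 7 did. The start of Smarcb1 lay 8498 bp from the nearest site, chr10:75930115-75930807, which was within 3 kb of the starts of Chchd10 and Mmp11 and had 241 and 181 normalized counts in WT and 257 and 206 in KO. A start without a listed site is a property of the merged peak list and not a value of 0, since the table lists only regions where a peak was called.

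The other Smarcb1 site, chr10:75898654-75899365, was intronic and had 266 and 341 normalized counts in WT and 315 and 239 in KO. The genotypes overlapped, with a log2 fold change of -0.13 (95% interval -0.65 to 0.38). Over both sites the sums were 507 and 522 in WT and 572 and 445 in KO, with a log2 fold change of -0.03 (95% interval -0.40 to 0.35). Per kb, the intronic site had more signal than 97.8% of intronic sites. Its central 300 bases (mm10, chr10:75898860-75899159, plus strand) are shown because this was the strong site of a gene without one at its start, and they hold an AP-1 motif, in capitals.
Smarcb1 intron: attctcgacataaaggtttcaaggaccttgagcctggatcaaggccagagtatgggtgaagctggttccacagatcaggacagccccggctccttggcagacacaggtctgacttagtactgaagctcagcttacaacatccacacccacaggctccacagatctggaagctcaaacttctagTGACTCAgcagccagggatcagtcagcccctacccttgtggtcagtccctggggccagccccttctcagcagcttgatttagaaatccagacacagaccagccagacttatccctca

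ARID1A is the subunit of the BAF complex that is lost most often in tumours. Arid1a had 7 sites along 77.8 kb of chromosome 4, with sums of 1574 and 1686 normalized counts in WT and 1823 and 1852 in KO. Both KO sums were above both WT sums, with a log2 fold change of 0.17 (95% interval -0.10 to 0.45), although no single site of the gene had both KO values above both WT values. Of its 7 sites, 6 had a fold change above 0.

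The Arid1a promoter site, chr4:133756607-133757788, had 508 and 539 normalized counts in WT and 530 and 635 in KO (log2 fold change 0.15, 95% interval -0.15 to 0.45). The site with the largest rise, chr4:133688282-133688961 in an intron, had 252 and 209 in WT and 408 and 248 in KO. KO replicate 1 alone was high there, KO replicate 2 lay below WT replicate 1, and the log2 fold change was 0.47 (95% interval -0.18 to 1.12). Without KO replicate 2 it was 0.83 and passed an unadjusted p under 0.05. An intronic site of the same level, chr4:133729363-133730191, had 280 and 284 in WT and 258 and 295 in KO.

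Arid1b encodes the alternative ARID subunit and is a gene mutated in Coffin-Siris syndrome. It was the longest of the member genes (353 kb on chromosome 17) and held 24 of the 60 sites. That number was reached by 0.679% of all 21938 protein-coding genes, with or without a site. Its sums were 2450 and 2453 normalized counts in WT and 2544 and 2594 in KO. The WT values were nearly the same and the genotypes did not overlap. Their log2 fold change was 0.07 (95% interval -0.23 to 0.36), and it fell to -0.0010 with equal totals and to -0.0075 under quantile normalization.

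Most of the Arid1b signal lay away from the start of the gene. Its promoter site, chr17:4994019-4994507, had 113 and 127 normalized counts in WT and 115 and 123 in KO and held between 4.52% and 5.18% of the sum. It was level between genotypes, with a log2 fold change of -0.01 (95% interval -0.61 to 0.59). Around the start the signal was split among several sites, the strongest of which, chr17:4995343-4996088, had 197 and 151 in WT and 175 and 194 in KO. Per kb of site, the promoter site had 244 normalized counts, the lowest of the 7 promoter sites, next to 269 for Smarca4, 295 for Smarcc2, 401 for Smarcc1, 468 for Arid1a, 511 for Smarca2 and 625 for Brd2. The libraries of neighbours in this order overlapped in part, and the order was not tested.

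**Figure D4:**
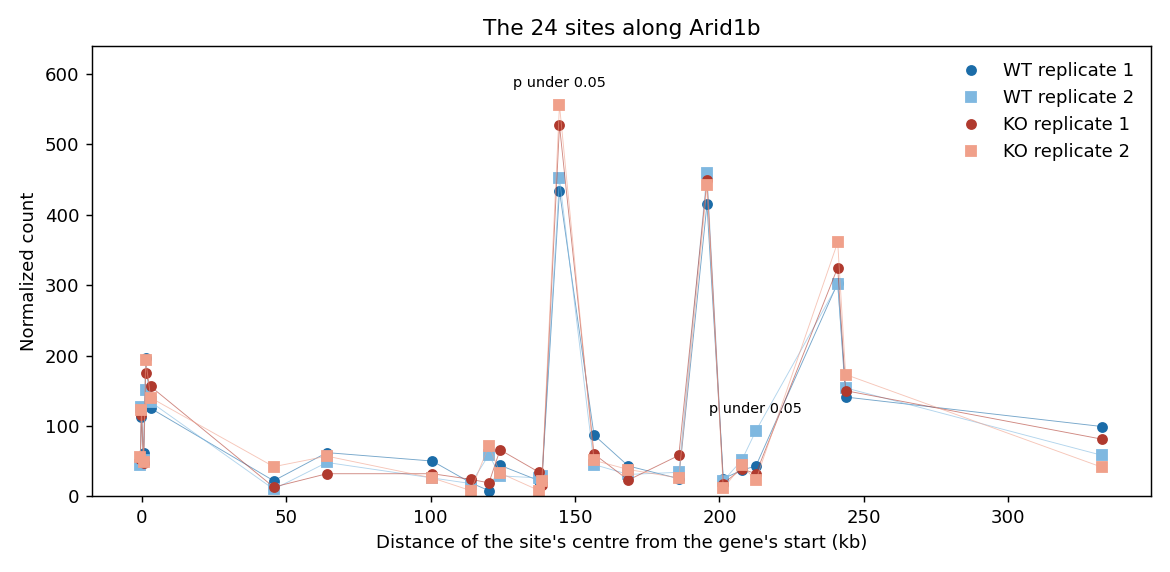
Normalized counts (y axis) of the 24 sites of Arid1b by distance of the site's centre from the gene's start in kb (x axis), for each of the 4 libraries (circles and squares, blue for WT and red for KO; thin lines join sites of a library). The 3 strong intronic sites stand at 145, 196 and 241 kb, above 300 normalized counts in every library, and the labels mark the 2 sites with an unadjusted p under 0.05.

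The strongest Arid1b sites were 3 intronic sites. The first, chr17:5138592-5139315, had 434 and 452 normalized counts in WT and 527 and 556 in KO, and per kb it exceeded 99.9% of all intronic sites. It was the member site that passed an unadjusted p under 0.05 upward, with a log2 fold change of 0.29 (95% interval 0.02 to 0.55). The genotypes did not overlap and the difference was larger than that within either genotype. It no longer passed with equal totals (0.22), under quantile normalization (0.13), or without WT replicate 1 (0.26), WT replicate 2 (0.32) or KO replicate 2 (0.25), where the numbers are log2 fold changes.

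The second strong site, chr17:5189543-5190467, had 415 and 460 in WT and 449 and 442 in KO. Its values overlapped, with a log2 fold change of 0.03 (95% interval -0.27 to 0.32). The third, chr17:5234924-5235579, had 303 and 301 in WT and 325 and 361 in KO, which do not overlap, with a log2 fold change of 0.18 (95% interval -0.18 to 0.54).

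The member site that passed an unadjusted p under 0.05 downward was a weaker intronic site of Arid1b, chr17:5206654-5207228. It had 43 and 93 normalized counts in WT and 32 and 23 in KO. WT replicate 2 was high and the other 3 libraries lay between 23 and 43. The log2 fold change was -1.19 (95% interval -2.35 to -0.03), the largest fall and the single member value past a log2 fold change of 1. It no longer passed an unadjusted p under 0.05 without WT replicate 2 (-0.64), KO replicate 1 (-1.42) or KO replicate 2 (-0.96), nor under quantile normalization (-1.15) or with chromosomes centred (-1.17).

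The central 300 bases of these Arid1b sites (mm10, plus strand) are given. The strong sites can thus be set beside the site with the largest fall, where WT replicate 2 was high. It is labelled lower in KO, and other Arid1b sites also had fold changes below 0. They lie at chr17:5138804-5139103, chr17:5189856-5190155, chr17:5235102-5235401 and chr17:5206792-5207091. Capitals mark the searched motifs.
Arid1b intron at 5138592: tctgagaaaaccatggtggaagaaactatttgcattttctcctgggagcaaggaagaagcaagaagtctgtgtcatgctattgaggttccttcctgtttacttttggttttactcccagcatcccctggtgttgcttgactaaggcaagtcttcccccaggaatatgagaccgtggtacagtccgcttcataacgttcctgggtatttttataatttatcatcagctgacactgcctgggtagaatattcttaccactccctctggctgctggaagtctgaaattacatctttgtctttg
Arid1b intron at 5189543: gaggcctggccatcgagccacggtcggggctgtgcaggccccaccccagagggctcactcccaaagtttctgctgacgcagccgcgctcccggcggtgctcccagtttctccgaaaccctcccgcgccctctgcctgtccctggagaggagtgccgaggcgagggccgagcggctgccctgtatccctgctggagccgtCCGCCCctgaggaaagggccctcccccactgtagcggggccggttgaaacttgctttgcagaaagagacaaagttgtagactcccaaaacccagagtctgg
Arid1b intron at 5234924: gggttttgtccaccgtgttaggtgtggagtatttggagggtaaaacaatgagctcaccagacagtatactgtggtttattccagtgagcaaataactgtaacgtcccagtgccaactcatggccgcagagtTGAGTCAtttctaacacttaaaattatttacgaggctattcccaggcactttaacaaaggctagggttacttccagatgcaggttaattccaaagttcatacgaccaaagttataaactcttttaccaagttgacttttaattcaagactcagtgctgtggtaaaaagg
Arid1b intron at 5206654, lower in KO: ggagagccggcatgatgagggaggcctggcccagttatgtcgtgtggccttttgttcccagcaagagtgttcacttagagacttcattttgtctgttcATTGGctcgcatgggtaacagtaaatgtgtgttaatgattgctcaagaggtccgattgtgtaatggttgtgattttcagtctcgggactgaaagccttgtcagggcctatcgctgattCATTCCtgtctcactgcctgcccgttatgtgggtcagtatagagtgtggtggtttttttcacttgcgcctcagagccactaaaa

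The first strong window held none of the searched motifs, the second a GC box and the third an AP-1 motif. The window of the site with the largest fall held a CCAAT box and a TEAD motif. Of the 24 Arid1b sites, 17 had a mean under 100, with values between 8 and 99. Of these, 12 had a log2 fold change below 0 and 5 above. Weak sites in general leaned the same way, with 32439 of all 58225 sites with a mean under 100 below 0. The largest rise of all member sites with a mean of at least 20 was among the weak Arid1b sites. It was at chr17:5114307-5114757, with 8 and 59 in WT and 19 and 72 in KO. Its replicates differed more than the genotypes did, and the log2 fold change of 0.72 had an interval from -1.74 to 3.18. The third largest fall, chr17:5131763-5132092, had 22 and 26 in WT and 34 and 8 in KO (log2 fold change -0.49, SE 0.73) and rested on KO replicate 2.

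The share of a gene's signal that lay in its promoter site does not depend on the scaling between libraries. The mean share was lower in KO for 6 of the 7 genes with a promoter site, against 51.7% of the 10290 protein-coding genes with a promoter site and at least 2 sites. For Smarcc1 it was 45.5% and 44.0% in WT and 40.1% and 38.2% in KO. For Smarca2 it was 55.1% and 54.2% in WT and 51.3% and 50.1% in KO. In these 2 genes both KO shares lay below both WT shares, against 16.9% of the 10290 genes, whereas Brd2 (42.8%, 44.9%, 43.4% and 40.4%), Smarca4 (63.4%, 55.8%, 53.8% and 64.0%), Arid1a and Arid1b overlapped. The Smarcc1 promoter site used here also lay at the start of Dhx30. At the RefSeq start site of Smarcc1 the log2 fold change was 0.13, above the 0.08 of the gene's sum. The direction of the Smarcc1 share thus depends on the start taken. Counting all sites within 3 kb of any transcript start as promoter, the share was lower in 2 of the 7 genes, Smarcc1 and Arid1a. For Brd2, Smarca2 and Smarcc2 every site then counted and the share was fixed. For Smarca4 and Arid1b the direction turned, with KO higher by 0.153 and 0.814 percentage points.

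The other 23 genes of the families, among them the PBAF subunits Pbrm1, Arid2, Brd7 and Phf10, and the accessory subunits of the Smarcd, Dpf and Bcl7 groups, had 101 sites. By limma 0 of these were called, against 0.373% of all sites, and 0 passed an unadjusted p under 0.05, against 3.13%. Their median log2 fold change was 0.05, with 54 sites above 0 and 47 below. Both KO values lay above both WT values at 14 sites, against 14.6% of all sites, and below at 14, against 14.3%. Over sums per gene, 15 had a log2 fold change above 0 and 8 below, from -0.40 for Phf10 to 0.24 for Dpf2. The median over all sites was -0.01 on chromosome 17, which holds Phf10, and 0.23 on chromosome 19, which holds Dpf2. By limma 0 of the sums passed an unadjusted p under 0.05, against 3.88% of all protein-coding genes with a site.

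Of the 21 promoter sites of these genes, the largest fall was at Smarcd3, a subunit gene known from heart development, with 50 and 35 normalized counts in WT and 26 and 29 in KO. The genotypes did not overlap, and the log2 fold change was -0.59 (95% interval -1.55 to 0.37). The strongest Smarcd3 sites lay near other annotated starts of the gene. Their log2 fold changes were -0.22 (chr5:24601784-24602806) and -0.01 (chr5:24604462-24605193), and that of the gene's sum was -0.02. The largest rise was at Bicra, a subunit gene of the non-canonical BAF complex that also holds BRD9, with 202 and 239 in WT and 214 and 326 in KO. Those values overlapped, with a log2 fold change of 0.26.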

How the data were processed

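ATAC-Seq was analysed in 4 libraries of immortalized mouse embryonic fibroblasts, 2 HAT1 WT and 2 HAT1 KO, grouped by the genotype in the labels. Per the labels and methods, the authors used BWA 0.7.12 for alignment (mm10), MACS2 2.1.0 for peaks and DESeq2 for their comparison. The values the authors deposited are a score: read counts per merged site, scaled between libraries and rounded to whole numbers. Read filters, the Tn5 offset and the handling of multimapping reads are not given in the sources used here. The deposited table also holds log2 fold changes and p-values from the authors' comparison, which were not used.

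Because the values were scaled and rounded, no count test was used. limma 3.58.1 with an intensity trend (R 4.3.3) was fitted to log2(value + 1) over all 82325 sites with no filter, and likewise to sums over the sites of 16947 genes, with Benjamini-Hochberg adjustment. Tests were two-sided. The fit was tested on simulated data. Depth was estimated from the steps that scaling leaves in low values and is approximate. Where a library was left out, the remaining library of its genotype was assumed to vary like the other genotype's.

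Sites within 3 kb of a transcript start in GENCODE were counted as near a start. The promoter site was the site with the highest mean within 1 kb of the 5′ end of the gene record, and RefSeq starts were an alternative chosen after seeing the data. Named were all members with the promoter site and the strongest other site, member sites with an unadjusted p under 0.05, the 3 largest falls and 3 largest rises among member sites with a mean of at least 20, and, of the other subunit genes, promoter sites with the largest fall and rise. Other named sites were chosen after their values were seen. Members, lists and motifs were chosen with earlier results of these data known. Alternatives were another pseudocount, equal totals, quantile normalization, chromosome centring, a filter on level, other site rules and each library left out. Python 3.11.15, numpy 2.4.6, pandas 2.3.3, pysam 0.24.0 and matplotlib 3.10.9 were used.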

Additional observations from a re-analysis of the deposited data

How the results depend on the processing

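By limma, no member site and no site of the other subunit genes was called under any alternative run, and no promoter site by the gene record passed an unadjusted p under 0.05. Of member sites, 2 passed that p as reported, 1 did with equal totals, with quantile normalization and with a filter on level, and 1 to 4 with a library left out. Gene sums passing it numbered 0, and 1 (Brd2) without KO replicate 1. The member median log2 fold change, 0.12 as reported, was 0.0538 with equal totals, -0.0030 with quantile normalization and between 0.0433 and 0.1095 with a library left out. Sites with both KO values higher, 13 as reported, numbered 7 with equal totals and 20 to 27 with a library left out, where fewer libraries make separation easier. Sites with both KO values lower, 7 as reported, numbered 4 with chromosomes centred, 2 with the filter and 12 to 18 with a library left out. The matching shares over all sites were not computed under these alternatives. The promoter share was lower in KO in 6 genes as reported, in 2 with all sites near starts counted, and in 4 to 6 with a library left out.

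The signs of several fold changes that passed no test turned, and the cause was not tested. With equal totals these were the sums of Smarcc2 (-0.0313) and Arid1b (-0.0010) and the promoter site of Smarca4 (-0.0025). With quantile normalization they were the sums of Smarcc1 (-0.0169), Smarcc2 (-0.0680) and Arid1b (-0.0075) and the promoter sites of Brd2 (-0.0126), Smarca4 (-0.0512), Smarcc2 (-0.0236) and Arid1a (-0.0220). With chromosomes centred they were the sum of Smarcb1 (0.0005) and the promoter sites of Smarca2 (-0.0693) and Arid1b (0.0141). With a library left out, the sums ranged from -0.0516 to 0.2228 for Smarca4, from -0.0296 to 0.1036 for Smarcc2 and from -0.2088 to 0.1527 for Smarcb1. Promoter sites ranged from -0.0275 to 0.2963 for Smarca2, from -0.1952 to 0.3267 for Smarca4 and from -0.0939 to 0.0732 for Arid1b, whose second start site ranged from -0.0960 to 0.2855. Other sites ranged from -1.4693 to 0.4901 (Arid1b, 5131763), from -0.6510 to 2.086 (Arid1b, 5114307), from -0.3589 to 0.2154 (Smarca4, 21691934) and from -0.3324 to 0.0645 (Smarcb1, 75898654). No paired analysis was possible because replicate numbers here are only names, and the titles of just 1 WT and 1 KO line hold the same line number. Both KO libraries are shallower than both WT libraries, which limits weak sites most.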
